A study of Mus musculus with 57 samples.

Results

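The thymus of clinically healthy CA10 mice was compared with the thymus of clinically healthy NHD13 mice, on 7 of the 57 arrays of the series. They were the 4 arrays titled C10 CH Thymus (CA10 thymus 1 to 4) and the 3 titled NHD13 CH Thymus (NHD13 thymus 1 to 3), and the 7 wild-type (WT) thymus arrays served to sort each difference by the fusion that departed from WT. CA10 mice carry a vav-CALM-AF10 transgene and NHD13 mice a vav-NUP98-HOXD13 transgene; the vav promoter drives expression in blood cells, so a fusion is not confined to thymocytes in either line. Mice without evident signs of leukemia counted as clinically healthy, none was treated, and WT tissue came, where possible, from litter mates matched for age. Strain, age, sex, number of mice per array and transgenic line are not given in the labels, so p-values measure the spread between these arrays, which may be technical. Total RNA of whole thymus was hybridized to Affymetrix mouse expression arrays, and every level below is a log2 signal made by the authors with RMA, so that a difference of 1 is a doubling of signal.

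CALM-AF10 joins a clathrin assembly protein to AF10, a partner of the histone methyltransferase DOT1L, and the fusion is known for keeping HOXA genes switched on in leukemia. NUP98-HOXD13 joins a nuclear pore protein to the DNA-binding homeodomain of a HOX protein, and is likewise known for HOXA activation. HOX proteins are transcription factors encoded in clusters named A to D, and they bind DNA together with the cofactors PBX and MEIS. In the thymus, progenitors that arrive from the marrow lose stem cell programs, gain CD4 and CD8, rearrange their T cell receptor genes and leave as mature T cells.

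On 3 thymus arrays the profile stood apart from the rest over all genes. On the first principal component, which held 44.1% of the variance, CA10 thymus 3 scored -96.8 and WT thymus 2 scored -98.6, and the other 12 lay between -30.4 and 49.8. WT thymus 6 scored -81.8 on the second component and had the lowest upper quartile of signal, 7.73 against 8.20 to 8.49 elsewhere. WT thymus 2 had Rag1 at 4.06, against 12.26 to 13.10 in the other WT arrays, so its thymocyte markers go against its label. No labels name a batch, and sex read from Xist and Eif2s3y was 2 male and 2 female arrays in CA10, 2 and 1 in NHD13, and 5 and 2 in WT.

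The question was which thymic changes belong to one fusion only. The 14 thymus arrays were fitted in 1 limma model with a mean per group, and a gene was called when its adjusted p was under 0.05 over the 15310 genes tested. The model held 1 spread per gene for all groups. Where NHD13 arrays spread more than the rest, the SE and p-value did not measure their spread alone. A gene counted as NHD13-only when it was called between the fusions and in NHD13 against WT with NHD13 apart from both, and was not called in CA10 against WT; CA10-only genes were defined in the mirrored way. Between the fusions 33 genes were called, which is 0.216% of those tested, with 4 higher and 29 lower in CA10. In NHD13 against WT 117 genes were called, or 0.764%, with 61 higher and 56 lower in NHD13. Only 30 of these 117 were also called between the fusions, so most were not shown to belong to NHD13 only. In 93 of the 117 the CA10 mean departed from WT in the same direction as NHD13. Both comparisons subtract the same WT arrays, which favours a shared direction. The share over all genes is not given here, so the 93 are a description only. In CA10 against WT limma called 0 genes (0%), with a smallest adjusted p of 0.79 and 520 genes at an unadjusted p under 0.05. Of the 33 genes, 30 were NHD13-only, 26 of them higher and 4 lower in NHD13 than in both other groups. No gene was CA10-only, and with 0 genes called in CA10 against WT the rule could give none. For the same reason, the condition of no call in CA10 against WT removed no gene from the NHD13-only count. The 3 genes Reep1, Pvt1 and Mtap were called between the fusions but in neither fusion against WT. With 1 array left out the 33 became 11 (without CA10 2) to 86 (without WT 6), and with only the CA10 and NHD13 arrays in the model 2 genes, Klhl4 and Pbx3, were called.

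In all 33 genes the CA10 mean lay nearer to the WT mean than the NHD13 mean did. The median size of the difference from WT was 0.24 in CA10 and 2.27 in NHD13 on the log2 scale. Since the model shares the WT arrays between these comparisons, the values are given side by side and not as separate evidence. CA10 and NHD13 arrays did not overlap in any of the 33 genes, whereas 12% of all genes tested had no overlap between the 4 and the 3 arrays. CA10 and WT arrays overlapped in 32 of the 33 genes, where only 0.327% of all genes tested had no such overlap.

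**Figure D1:**
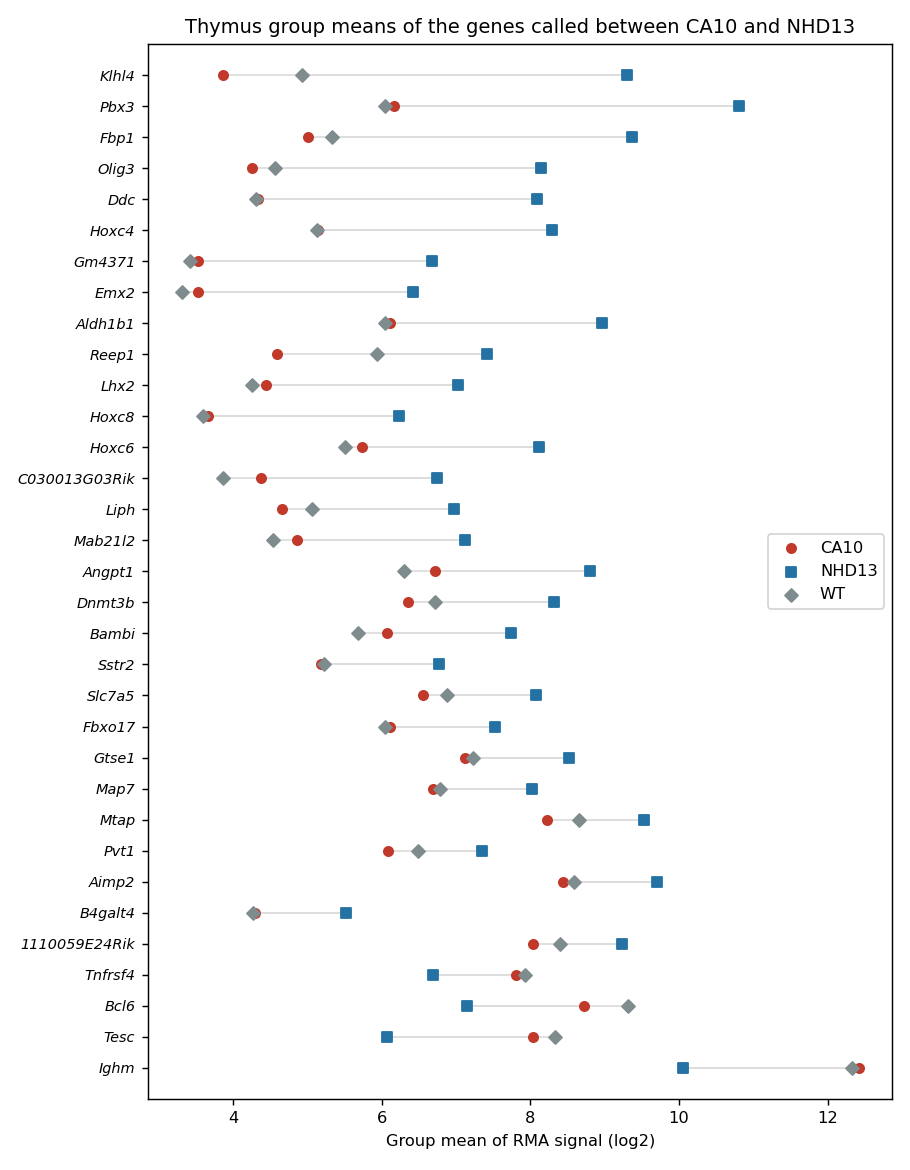
Group means of the RMA signal (log2, x axis) in thymus for the 33 genes called between the fusions, ordered by CA10 minus NHD13, with CA10 as circles, NHD13 as squares and WT as diamonds. In every row the CA10 mean is nearer to the WT mean than the NHD13 mean is, with the widest gaps between CA10 and WT for Reep1 and Klhl4.

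The HOXC cluster, a row of body-patterning genes, held 3 of the 33 genes. Of its 9 listed genes 7 were measured and 5 were tested, and Hoxc4, Hoxc6 and Hoxc8 were lower in CA10 than in NHD13. The median difference of the 5 was -2.38, against 0.01 over all genes tested. Hoxc8 had 4.17, 3.70, 3.30 and 3.47 in CA10 thymus and 5.93, 6.48 and 6.29 in NHD13 thymus, against 3.38 to 3.96 (median 3.58) in WT thymus. All 3 NHD13 arrays lay above every CA10 and WT array, and the difference was -2.57 ± 0.23 (CA10 minus NHD13, SE; adjusted p = 0.000125). Hoxc4 had 4.98, 4.82, 6.37 and 4.38 in CA10, 7.93, 7.81 and 9.12 in NHD13, and 4.57 to 5.95 (median 4.98) in WT. The highest CA10 array, number 3, stood above all WT arrays but below all NHD13 arrays, and the difference was -3.15 ± 0.47 (adjusted p = 0.0113). Hoxc6 had 5.82, 5.64, 6.40 and 5.08 in CA10, 7.70, 7.91 and 8.74 in NHD13, and 4.91 to 6.02 (median 5.53) in WT. Its NHD13 arrays were again the 3 highest of the 14, with a difference of -2.38 ± 0.33 (adjusted p = 0.00806). A second probe set of Hoxc6 gave -2.31 and another, with all group means near 5, gave -0.175. Hoxc5 (4.62 to 5.07 in CA10, 4.97 to 6.31 in NHD13, 4.47 to 5.69 in WT) overlapped between groups and was not called, nor was Hoxc9, at 6.48 to 7.00 in CA10, 6.32 to 6.53 in NHD13 and 5.97 to 6.55 in WT.

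Pbx3, a PBX cofactor that binds DNA with HOX proteins, differed by more than any HOX gene. Its signal was 6.55, 6.20, 6.01 and 5.90 in CA10 and 10.91, 10.15 and 11.37 in NHD13, against 4.29 to 6.86 (median 6.01) in WT. The NHD13 arrays lay far above all 11 others, and CA10 minus NHD13 was -4.65 ± 0.49 (adjusted p = 0.000937), a 25.0-fold lower signal in CA10. A second probe set gave -3.80. The other 7 tested cofactors were not called, among them Meis2 (-0.17) and Pbx2 (0.83).

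Klhl4, which encodes a kelch-like protein, had the largest difference of all 33 genes. It read 3.64, 3.85, 4.40 and 3.58 in CA10 and 9.78, 9.17 and 8.94 in NHD13, against 4.03 to 5.95 (median 4.43) in WT. CA10 arrays sat within or below the WT range, and NHD13 arrays far above its top. CA10 minus NHD13 was -5.43 ± 0.46 (adjusted p = 0.000125), and a second probe set gave -2.52. All 4 CA10 arrays read Klhl4 below their own 40th percentile of signal (5.24 to 5.38), so it was not shown to be above background there and no fold is given; the same limit holds for other genes below that level. The 3 other genes that were listed beside Klhl4 because earlier results of this series linked them to NHD13 were not called: Dach2 (-2.75), Ptpn13 (-1.52) and Mmp13 (-0.81).

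**Figure D2:**
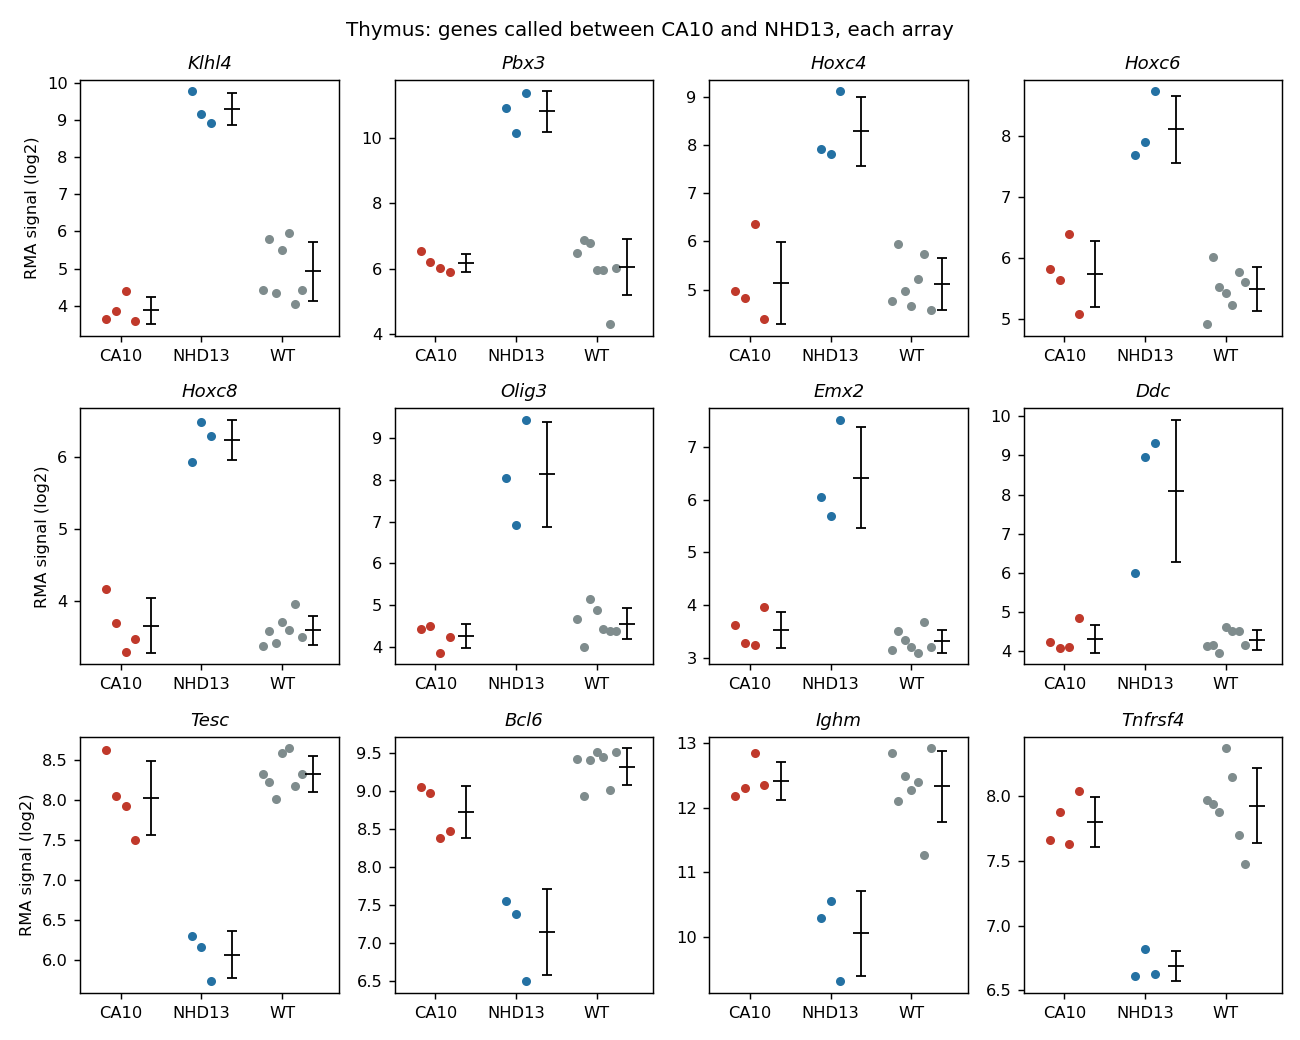
RMA signal (log2, y axis, its range set per panel) of 12 called genes on each thymus array, with CA10, NHD13 and WT from left to right and the mean ± SD as bars. In the upper 8 panels the 3 NHD13 arrays lie above all others, and in the lower 4 panels they lie below all others.

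The sequences before the starts of called genes were read from RefSeq (GRCm38.p6) because these genes moved together. Of the 33 genes 24 had a promoter entry, 21 of them lower in CA10, and the 250 bases before the start were searched on both strands for TTATNG, a HOX-type core, TGACAG, a MEIS-type core, and TGATNNAT, a joint HOX and PBX core. TTATNG was found before 5 of the 21 genes (Fbp1, Hoxc4, Liph, Olig3 and Reep1), and 22.0% of all 32851 promoters held it. TGACAG was found before 3 of the 21 (Ddc, Klhl4 and Reep1), against 15.9% of all promoters, and TGATNNAT before none of them, against 7.7%. A gene counted when any of its promoter entries matched, whereas the shares over all promoters count each entry singly, so they are not strictly alike. These are letter matches in a short window, and a match is not a binding site. In the sequences below, for 3 genes with large differences and a match, the capitals mark TTATNG or TGACAG read on the opposite strand; in Olig3 the match overlaps a TATA-type run. The windows, from the first promoter entry of each gene, are chrX:114474083-114474332, chr15:103034145-103034394 and chr10:19356289-19356538, all on the plus strand.
Klhl4 promoter: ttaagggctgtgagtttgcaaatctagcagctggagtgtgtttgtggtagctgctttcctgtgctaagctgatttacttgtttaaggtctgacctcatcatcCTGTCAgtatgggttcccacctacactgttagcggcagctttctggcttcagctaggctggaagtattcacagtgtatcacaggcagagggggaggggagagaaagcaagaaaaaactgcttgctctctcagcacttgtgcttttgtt
Hoxc4 promoter: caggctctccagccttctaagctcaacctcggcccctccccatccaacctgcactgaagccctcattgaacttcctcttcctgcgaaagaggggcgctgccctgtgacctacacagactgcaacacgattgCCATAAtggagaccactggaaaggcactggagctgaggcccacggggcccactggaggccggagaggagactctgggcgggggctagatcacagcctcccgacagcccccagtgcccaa
Olig3 promoter: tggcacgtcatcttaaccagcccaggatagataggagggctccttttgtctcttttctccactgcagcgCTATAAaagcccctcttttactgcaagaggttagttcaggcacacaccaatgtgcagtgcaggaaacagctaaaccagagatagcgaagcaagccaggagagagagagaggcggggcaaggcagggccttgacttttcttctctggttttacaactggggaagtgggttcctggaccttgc

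Olig3, a basic helix-loop-helix factor of the spinal cord, had 4.42, 4.51, 3.86 and 4.23 in CA10 and 8.05, 6.93 and 9.44 in NHD13, against 3.99 to 5.16 in WT. The CA10 arrays lay within or just under the WT range, the NHD13 arrays were all higher, and the difference was -3.88 ± 0.44 (adjusted p = 0.00153). Emx2, a homeobox factor of the forebrain and urogenital tract, had 3.62, 3.27, 3.24 and 3.97 in CA10 and 6.06, 5.69 and 7.52 in NHD13, against 3.09 to 3.67 in WT. Lhx2, a LIM homeobox factor, had 4.98, 4.38, 3.96 and 4.43 in CA10 and 6.67, 5.74 and 8.66 in NHD13, against 4.04 to 4.65 in WT. Both were lower in CA10, Emx2 by a difference of -2.90 ± 0.35 (adjusted p = 0.00195) and Lhx2 by -2.59 ± 0.48 (adjusted p = 0.0474). The NHD13 SD was 1.26 for Olig3, 0.97 for Emx2 and 1.49 for Lhx2, against 0.20 to 0.42 in CA10 and WT. The shared SE of each gene does not measure that wider spread alone. Among the thymus arrays, only those of NHD13 read Olig3, Emx2 and Lhx2 above their own 40th percentile of signal. In thymus, the NHD13 arrays alone could thus carry these genes through the filter on low signals. Hoxc8, Ddc, Gm4371 and B4galt4 had the same limit. With no filter, limma still called Hoxc8 (adjusted p = 0.000118), Ddc (0.0164), Olig3 (0.0023) and Emx2 (0.00258). Emx2 and Lhx2 were not tested with the filter at the 60th percentile. The Lhx2 call was lost with no filter (adjusted p = 0.0553), mean probe sets (0.0521), quantile normalization (0.0676), sex as covariate (0.0556) and the Gapdh covariate (0.0923). Mab21l2, a regulator of eye and body wall development, had 5.25, 4.41, 5.06 and 4.71 in CA10 and 6.95, 6.43 and 7.97 in NHD13, against 4.12 to 5.31 in WT, a difference of -2.26 ± 0.36 (adjusted p = 0.0169). NHD13 thymus 3 was the highest array for Olig3, Emx2, Lhx2 and Mab21l2, as it was for Hoxc4 and Hoxc6. A list of 18 neural genes, of which 9 were tested, had no called member and a median difference of 0.06, and the 5 neural cell markers averaged 4.37 to 4.52 in CA10, 4.27 to 4.50 in NHD13 and 4.32 to 4.71 in WT.

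Fbp1, the gluconeogenic fructose bisphosphatase, had 4.70, 5.31, 4.97 and 5.05 in CA10 and 7.24, 10.95 and 9.90 in NHD13, against 4.98 to 5.91 in WT. Ddc, the aromatic amino acid decarboxylase of dopamine and serotonin synthesis, had 4.24, 4.10, 4.11 and 4.86 in CA10 and 6.01, 8.96 and 9.31 in NHD13, against 3.97 to 4.62 in WT. NHD13 thymus 1 was the lowest of its group for both genes but still stood above all CA10 and WT arrays. The differences were -4.35 ± 0.59 for Fbp1 (adjusted p = 0.00637) and -3.76 ± 0.56 for Ddc (adjusted p = 0.0113), although a weak second probe set of Ddc gave 0.27. On the NHD13 arrays the SD was 1.91 for Fbp1 and 1.81 for Ddc, against 0.25 to 0.36 in CA10 and WT. These SEs and p-values thus do not measure the spread of the NHD13 arrays alone. Gm4371 and Reep1 also spread most in NHD13 (SD 1.08 and 1.45). With the mean of its probe sets Ddc was at -1.75 and not called (adjusted p = 0.0824). Aldh1b1, a mitochondrial aldehyde dehydrogenase, had 5.75, 5.81, 5.40 and 7.50 in CA10 and 8.74, 8.45 and 9.72 in NHD13, against 5.27 to 6.59 in WT. CA10 thymus 4 lay above the WT range for it, and the difference was -2.85 ± 0.48 (adjusted p = 0.0276). Angpt1, a ligand of the TIE2 receptor made by stem cell niches and listed with the stem and progenitor genes, had 6.70, 6.62, 6.82 and 6.69 in CA10 and 8.88, 9.28 and 8.23 in NHD13, against 5.32 to 6.80 in WT. Its difference was -2.09 ± 0.31 (adjusted p = 0.0113), and a second probe set gave -1.52. The other 15 tested stem and progenitor genes were not called; Kit, Prom1 and Eya1 had differences of -1.67, -2.02 and -2.06, and the median of the list was -0.05.

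Further genes lower in CA10 served signalling, transport, growth or chromatin. Bambi, a decoy receptor of the TGF-beta family, had 5.48 to 6.82 in CA10, 7.61 to 7.83 in NHD13 and 5.27 to 6.18 in WT, and Sstr2, a somatostatin receptor, had 4.78 to 5.51, 6.57 to 7.14 and 4.39 to 5.63 in the same order of groups. Dnmt3b, a de novo DNA methyltransferase, had 5.39 to 6.86 in CA10, 8.05 to 8.68 in NHD13 and 6.16 to 7.17 in WT. Slc7a5, a large neutral amino acid transporter, had 6.13 to 7.10 in CA10, 7.73 to 8.43 in NHD13 and 6.58 to 7.29 in WT. Gtse1, a mitotic regulator of microtubules, had 7.01 to 7.27 in CA10, 8.26 to 8.74 in NHD13 and 6.70 to 7.51 in WT. These 5 differed by -1.40 to -1.97, with adjusted p from 0.0106 to 0.0324. The remaining NHD13-only genes of this direction were Liph, B4galt4, Fbxo17, Aimp2, Map7, Gm4371, 1110059E24Rik and C030013G03Rik, with differences from -1.21 to -3.14. Map7 had 1 weak probe set that ran the other way (0.34) and another at -1.92.

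Of the 3 genes called in neither fusion against WT, Reep1, which shapes the endoplasmic reticulum, had 3.91, 5.23, 4.64 and 4.56 in CA10 and 7.56, 5.91 and 8.80 in NHD13, against 5.54 to 6.30 in WT. CA10 arrays lay below every WT array and NHD13 arrays reached above them, with a difference of -2.84 ± 0.50 (adjusted p = 0.032). Pvt1, a long noncoding RNA next to Myc, and Mtap, an enzyme of methionine salvage, had differences of -1.27 and -1.30. The 3 other probe sets of Mtap gave -1.677, -1.903 and -1.796. On each of them all NHD13 arrays lay above all CA10 and WT arrays, and CA10 and WT arrays overlapped. These probe sets were not tested singly against WT, so the class of Mtap holds for the probe set used only.

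The 4 genes higher in CA10 than in NHD13 were Tesc, Bcl6, Ighm and Tnfrsf4, all low in NHD13 and with a CA10 mean nearer to WT than to NHD13. Tesc, a calcium-binding regulator of sodium and proton exchange, had 8.63, 8.06, 7.93 and 7.51 in CA10 and 6.30, 6.17 and 5.74 in NHD13, against 8.02 to 8.65 in WT. Bcl6, a transcriptional repressor of germinal center B cells and follicular helper T cells, had 9.05, 8.98, 8.39 and 8.47 in CA10 and 7.55, 7.38 and 6.50 in NHD13, against 8.93 to 9.51 in WT. All NHD13 arrays lay below all others for both, and the differences were 1.97 ± 0.25 (adjusted p = 0.00377) and 1.58 ± 0.27 (adjusted p = 0.029). Ighm, the immunoglobulin heavy chain mu, had 12.18, 12.30, 12.85 and 12.35 in CA10 and 10.29, 10.56 and 9.31 in NHD13, against 11.27 to 12.92 in WT. Its difference was 2.37 ± 0.37 (adjusted p = 0.0169); of 10 other Ighm probe sets, 1 gave 2.32 and the rest lay between -0.15 and 0.62, and with the mean of all its probe sets Ighm was at 0.565 and not called (adjusted p = 0.686). Tnfrsf4, the T cell costimulatory receptor OX40, had 7.66, 7.88, 7.63 and 8.04 in CA10 and 6.61, 6.82 and 6.63 in NHD13, against 7.48 to 8.37 in WT, with a difference of 1.12 ± 0.21 (adjusted p = 0.0484). The next genes by p, Gimap6, Il4ra, Tecpr1, Faah, Egr1 and Ccl22, were higher in CA10 by 0.94 to 2.30 but were not called (adjusted p from 0.0597 to 0.0956); each was called lower in NHD13 against WT.

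No HOXA gene was called between the fusions. Hoxa9, the HOX gene most tied to acute leukemia, had 11.16, 9.18, 5.78 and 11.16 in CA10 and 6.78, 8.35 and 11.66 in NHD13, against 3.59 to 4.26 (median 3.92) in WT. All 7 fusion arrays lay above all 7 WT arrays, but the arrays of each fusion spread widely. In the limma fit NHD13 minus WT was 5.03 (unadjusted p = 0.000268, adjusted p = 0.0403) and passed. CA10 minus WT was 5.42, with a 95% interval of 3.39 to 7.46. It had the smaller unadjusted p, 5.16e-05, but an adjusted p of 0.79, and was not called. The adjustment depends on all genes of a comparison, so the missing call does not show a weaker rise in CA10. CA10 minus NHD13 was 0.39 with a 95% interval of -2.09 to 2.87, too wide to show either a difference or its lack. Hoxa10 had 5.80, 4.71, 3.48 and 7.61 in CA10 and 3.79, 4.27 and 8.40 in NHD13, against 3.35 to 3.74 in WT, and CA10 thymus 3 and WT overlapped. Hoxa7 had 7.49, 7.21, 7.07 and 7.54 in CA10 and 8.82, 8.33 and 8.26 in NHD13, against 5.67 to 6.83 in WT. The 3 groups did not overlap for Hoxa7; NHD13 minus WT was 2.18 (adjusted p = 0.000344), CA10 minus WT 1.04 was not called, and CA10 minus NHD13 was -1.14 (adjusted p = 0.106). Hoxa5 had 8.59, 7.64, 8.49 and 8.48 in CA10 and 7.70, 7.12 and 7.70 in NHD13, against 6.56 to 9.72 in WT. Its second probe set had group means of 8.78 in CA10 and 8.58 in NHD13, against 6.23 in WT, so the probe sets of this gene disagreed. Of the 8 tested HOXA genes, 0 were called between the fusions or in CA10 against WT and 2 rose in NHD13 against WT, and none of the 6 HOXB and 3 HOXD genes tested was called in any of the 3 comparisons.

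**Figure D3:**
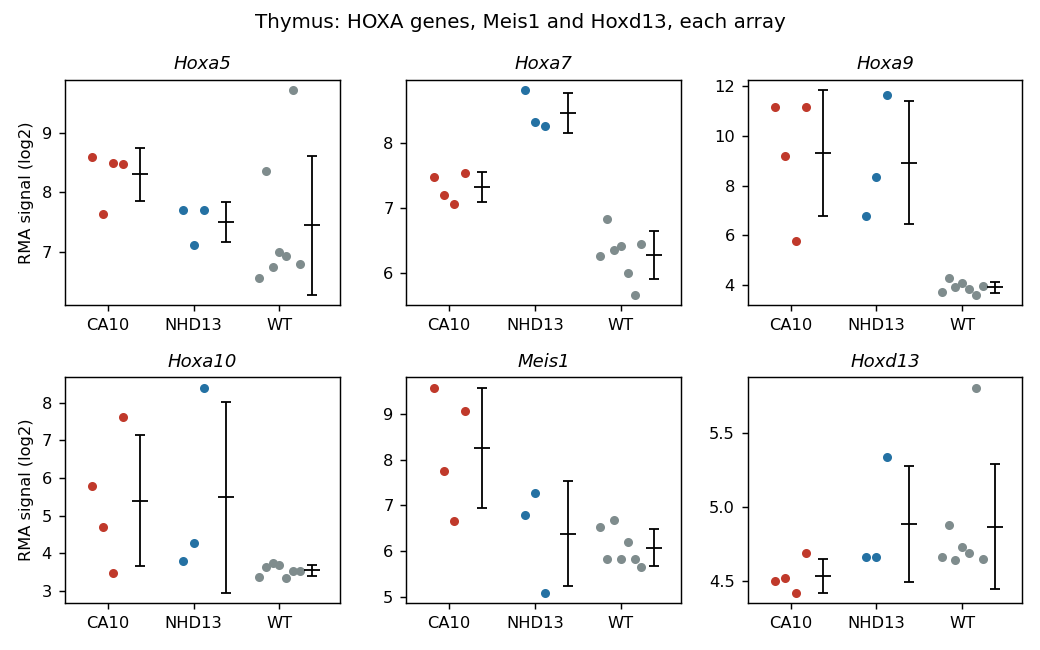
RMA signal (log2, y axis, its range set per panel) of 4 HOXA genes, Meis1 and Hoxd13 on each thymus array, with CA10, NHD13 and WT from left to right and the mean ± SD as bars. For Hoxa9 all 7 fusion arrays lie above the WT arrays and overlap each other, and for Meis1 3 CA10 arrays lie above all NHD13 arrays.

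Meis1, the cofactor that acts with Hoxa9, ran the other way from Pbx3. It had 9.57, 7.75, 6.65 and 9.05 in CA10 and 6.78, 7.27 and 5.09 in NHD13, against 5.65 to 6.68 (median 5.83) in WT. CA10 thymus 1, 2 and 4 lay above all other arrays and CA10 thymus 3 within the WT range. CA10 minus NHD13 was 1.88 ± 0.61 and was not called (adjusted p = 0.326), and a second probe set gave 1.68. For the fusion partner genes the differences were within the spread of the arrays: Nup98 averaged 8.53 ± 0.26 in CA10, 8.52 ± 0.12 in NHD13 and 8.45 in WT, and Mllt10 averaged 9.09 ± 0.60, 9.13 ± 0.40 and 9.42 in these groups (SD, n = 4 and 3 for the fusions). Hoxd13 was at 4.42 to 4.69 in CA10, 4.66 to 5.34 in NHD13 and 4.64 to 5.81 in WT. Whether these probe sets read the transgenes is not given in the sources used here, so they do not check the labels, and Picalm was not analysed here. Bmi1, a polycomb gene tied to CALM-AF10 leukemia, had a difference of -0.21 (adjusted p = 0.819).

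Few members of the T and B cell lists were called between the fusions. In bulk tissue, fewer cells of a type and less RNA per cell cannot be told apart. Of 8 Gimap genes, GTPases of lymphocyte survival, 0 were called between the fusions and 6 fell in NHD13 against WT; all 8 differences between the fusions were positive, with a median of 1.37. Gimap6 had 8.70, 9.46, 8.10 and 9.36 in CA10 and 6.91, 7.60 and 5.50 in NHD13, against 9.05 to 10.05 in WT. Of 15 T cell receptor and coreceptor genes 0 were called between the fusions, the median was 0.72, and Cd2 fell in NHD13 against WT. Cd8b1, a chain of the CD8 coreceptor, had 11.14, 12.42, 10.61 and 12.35 in CA10 and 10.63, 8.78 and 6.25 in NHD13, against 8.11 to 12.60 (median 12.37) in WT, and overlapped between groups. The CD3 genes were not called, with differences of -0.37 for Cd3e, -0.58 for Cd3g and 0.43 for Cd3d. Of 15 mature T cell genes 1 (Tnfrsf4) was called between the fusions and 3 (Tnfrsf4, Ccr7 and Cd69) fell in NHD13 against WT. Early thymocyte stage genes (17 tested), gamma-delta and innate T cell genes (7) and NK and cytotoxic genes (13) had 0 called members and median differences of -0.47, -0.06 and -0.13. Of 15 B cell genes 1 (Ighm) was called between the fusions and 2 (Ighm and Ms4a1) fell in NHD13 against WT, with a median of 0.88 between the fusions. Mitotic genes (19 tested) and DNA replication genes (20 tested) had 0 called members between the fusions, yet every difference was negative, with medians of -0.93 and -1.19 against 0.01 over all genes. Without CA10 thymus 3, WT thymus 2 and WT thymus 6 these medians were -0.46 and -0.77; CA10 thymus 3 had the lowest CA10 mean of the mitotic list, 7.24 against 8.47 to 9.67 in the other CA10 arrays.

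Of the marker lists given here, the list means of CA10 and NHD13 arrays separated for B cells and overlapped for the others. The 7 measured B cell markers averaged 6.65 to 7.37 in CA10 and 5.33 to 5.89 in NHD13, against 6.30 to 9.19 in WT, so that the NHD13 means lay below both other groups. Ms4a1, Cd79a, Cd79b, Cr2 and Fcer2a were each lower on all NHD13 than on all CA10 arrays. Pax5 (5.49 to 5.78 in CA10, 5.50 to 6.00 in NHD13) and Blk (6.73 to 7.43 and 5.45 to 8.10) overlapped. The 13 thymocyte markers averaged 9.56 to 11.18 in CA10 and 9.50 to 10.47 in NHD13, against 7.66 to 11.45 in WT. The thymocyte markers did not move alike either. Rag1, a defining gene of immature thymocytes, was at 10.59 or above on all 7 fusion arrays, and Dntt at 10.62 or above. Rag2 was at 7.43 to 9.77 in CA10 and 5.77 to 7.59 in NHD13, against 4.99 to 10.16 (median 9.81) in WT. Cd4 was at 9.49 to 11.03 in CA10 and 8.10 to 9.49 in NHD13, against 8.74 to 11.49 (median 11.21) in WT. Cortical thymic epithelium markers averaged 8.32 to 10.67 in CA10, 9.73 to 11.25 in NHD13 and 6.19 to 10.50 in WT, neutrophil markers 7.31 to 9.06, 6.77 to 7.45 and 5.83 to 8.24, and fat markers 9.65 to 13.30, 9.20 to 12.35 and 7.12 to 13.13. The part of cell mixture in the called genes was not tested.

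**Figure D4:**
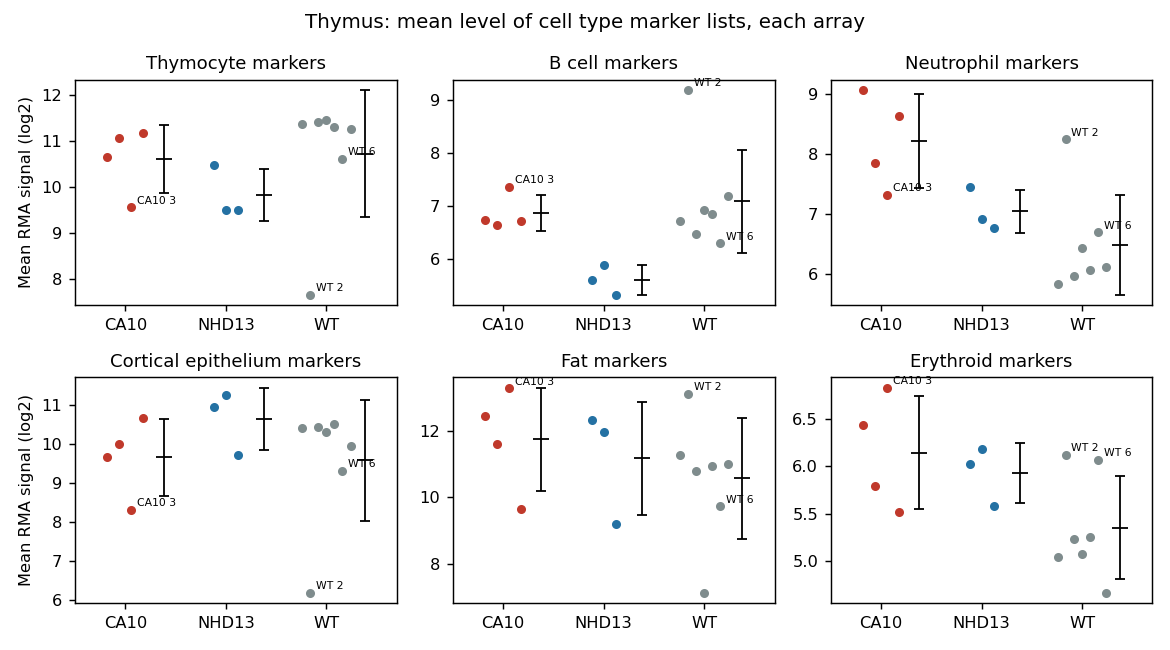
Mean RMA signal (log2, y axis, its range set per panel) of 6 marker lists on each thymus array, with CA10, NHD13 and WT from left to right and the mean ± SD as bars. CA10 3 and WT 2 are the lowest of their groups for thymocyte markers and the highest for fat markers, WT 2 is also high for B cell markers, and NHD13 is below both other groups for B cell markers.

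Without CA10 thymus 3, 24 genes were called between the fusions, or 0.157%, and 20 of them were among the 33. All 33 genes kept their direction. The 13 that lost the call, with adjusted p from 0.0651 to 0.104, were Liph, Aldh1b1, Slc7a5, Pvt1, Reep1, Sstr2, C030013G03Rik, Mtap, Aimp2, Fbxo17, Lhx2, Tnfrsf4 and Map7. The 4 gained were all higher in CA10: Ccl22, a chemokine (1.94, adjusted p = 0.00465), Ccr7, the homing receptor of mature T cells (2.49, adjusted p = 0.0443), Gimap6 (2.50, adjusted p = 0.0395) and Gimap8 (2.38, adjusted p = 0.0312). In CA10 against WT 1 gene was then called, Hoxa9, and it was also called in NHD13 against WT, so the count of CA10-only genes stayed at 0.

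Leaving out all 3 arrays, a choice made after the data were seen, raised the counts to 526 between the fusions (3.44%), 6 in CA10 against WT (0.0392%) and 1637 in NHD13 against WT (10.7%). All 33 genes were among the 526. The 6 genes higher in CA10 than in WT were Hoxa9 (6.61, adjusted p = 0.0278) and the neutrophil genes Ngp (3.20, adjusted p = 0.000437), Camp, S100a9, Chil3 and S100a8. Ngp had 9.39, 8.57 and 9.13 in CA10 thymus 1, 2 and 4 and 7.20, 6.86 and 7.47 in NHD13, against 5.48 to 6.31 in the 5 WT arrays that remained, and 6.86 and 9.25 in the left-out arrays CA10 3 and WT 2. Camp, Chil3 and S100a8, all granule or alarm proteins of neutrophils, met the CA10-only rule in this setting, while Hoxa9, Ngp and S100a9 were also called in NHD13 against WT. NHD13 was above WT for these 3 as well, by 0.71 for Camp (adjusted p = 0.0686), 1.00 for Chil3 (0.0897) and 1.01 for S100a8 (0.115). Their CA10-only class thus rests on the threshold. NHD13-only genes numbered 451. Of the genes called between the fusions in this setting, 7 of 15 T cell receptor and coreceptor genes (Cd4, Cd8a, Cd8b1, Cd2, Cd6, Cd28 and Cd27) and 5 of 15 B cell genes were higher in CA10 than in NHD13, Meis1 passed at 2.41 (adjusted p = 0.0464), and Hoxa7 passed at -1.06 (adjusted p = 0.0149).

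The same fusions were set against each other in tissues that share no array with the thymus. In clinically healthy whole marrow (3 against 3 arrays) 29.1% of all genes were called, and of the 33 thymus genes 11 were called in the same direction and 1, Fbp1, in the opposite one (1.38). In leukemic spleen (6 against 6) 24.7% of all genes were called, and 14 of the 33 in the same direction. In lineage-negative marrow (3 against 3) limma called 0 genes (0%; 321 at an unadjusted p under 0.05), and 22 of the 33 had the same sign. Klhl4 was lower in CA10 by -3.52 in whole marrow and -3.50 in leukemic spleen, Pbx3 by -3.31 and -4.55, and Hoxc4 by -1.84 and -3.49, all called. Hoxc8 (-1.37 and -1.55) and Mab21l2 (-1.97 and -0.49) were called in both as well, and Ighm was higher in CA10 in both (2.01 and 1.95). By contrast, Olig3 was at 0.45 in whole marrow and -0.03 in leukemic spleen, Emx2 at 0.14 and -0.07, Ddc at -0.12 and -0.46, and Lhx2 at 0.07 and -0.31, none of them called.

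**Figure D5:**
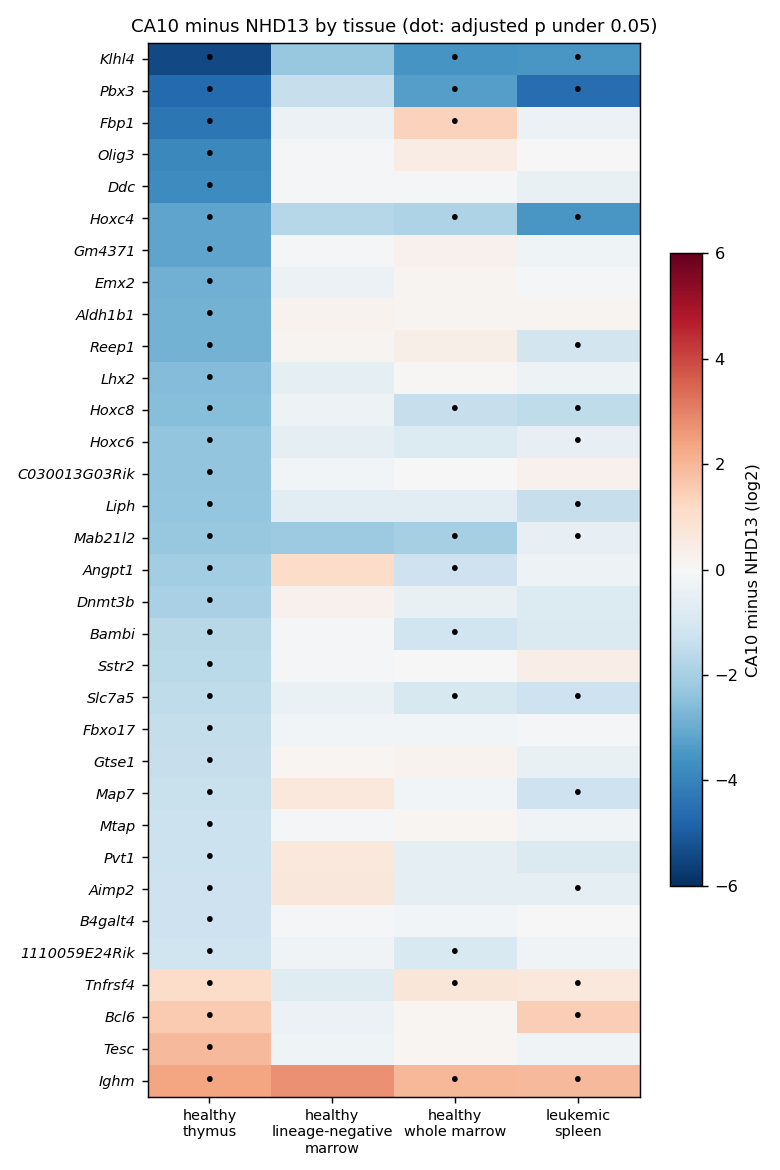
CA10 minus NHD13 (log2, color scale) for the 33 genes in healthy thymus, healthy lineage-negative marrow, healthy whole marrow and leukemic spleen, with a dot where the adjusted p was under 0.05. Klhl4, Pbx3, Hoxc4 and Hoxc8 are blue with a dot in thymus, whole marrow and leukemic spleen, and Olig3, Ddc, Emx2 and Lhx2 carry a dot in thymus only.

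The difference between tissues was tested in a model of all 57 arrays. For 14 of the 33 genes CA10 minus NHD13 differed between thymus and lineage-negative marrow, as did 0.242% of all genes tested, and for 15 it differed between thymus and leukemic spleen, as did 2.76% of all genes. The thymus difference chose these genes, so the shares are a description. Olig3 differed by -3.79 and -3.86 from these tissues and Emx2 by -2.55 and -2.83, whereas Pbx3 differed by -0.09 from leukemic spleen and was not called. Of the 33 genes 3 (Fbp1, Fbxo17 and Map7) were also lower in the other WT whole marrows than in those labelled C57B6, a comparison that called 19.2% of all genes; the strain of the thymus donors is not given in the sources used here.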

How the data were processed

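RNA of mouse thymus and other blood-forming tissues was measured on Affymetrix arrays; extraction used Trizol and biotin labelling, per the labels' protocols. The authors' deposited table held log2 signals made with RMA, per the submitters' processing notes, and its version was not given in the sources used here. A gene was read by the probe set of highest mean over all arrays, and was tested if its signal passed the 40th percentile on 3 or more of the 57 arrays. The 14 thymus arrays were fitted with limma 3.58.1 in R 4.3.3 (lmFit, eBayes), with Benjamini-Hochberg adjustment over 15310 genes and a threshold of 0.05; the fit was tested on simulated data. Array depth has no counts, and the number of arrays limits precision. Genes were named by size of the difference (up to 10 per direction), as HOX-related genes of interest, and as called members of 43 gene lists; others named were chosen after their values were seen. The comparison, lists and cell type markers were chosen with earlier results of these data known.

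Same-numbered CA10 and NHD13 arrays did not deviate together (correlations of 0.093, -0.26 and -0.468), so replicate numbers were not treated as pairs. Alternatives were other filters, probe set rules, normalization, covariates, all 57 arrays and leaving out arrays.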

Additional observations from a re-analysis of the deposited data

Results flagged for a closer look

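Dixon's test was applied to 64 groups of the named genes, and 5 had an array far from its nearest neighbour; chance flags about 1 in 20 groups. Hoxa5 was low in CA10 thymus 2, at 7.64 with the nearest array at 8.48. WT thymus 6 was low for Angpt1 (5.32, nearest 6.24) and Pbx3 (4.29, nearest 5.94) and high for Hoxd13 (5.81, nearest 4.88). WT thymus 2 was low for Egr1 (8.30, nearest 9.70).

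CA10 minus NHD13 differed between the thymus and another tissue for several named genes, by the interaction term of the limma fit over all 57 arrays. Against both lineage-negative marrow and leukemic spleen, the thymus difference was the more negative for Olig3 (by -3.79, adjusted p = 6.44e-09, and -3.86, adjusted p = 4.95e-12) and Emx2 (-2.55, adjusted p = 5.92e-06, and -2.83, adjusted p = 1.06e-09). The same held for Ddc (-3.63, adjusted p = 0.0195, and -3.31, adjusted p = 0.000979), Fbp1 (-4.01, adjusted p = 0.0309, and -3.99, adjusted p = 0.000726) and Aldh1b1 (-3.05, adjusted p = 0.0272, and -3.02, adjusted p = 0.000653). Tecpr1, which was not called in thymus, differed by 1.73 (adjusted p = 0.0195) and 1.07 (adjusted p = 0.0433). This fit holds 1 spread per gene for all tissues. Olig3 had an SD of 1.26 on the NHD13 thymus arrays and 0.06 to 0.18 in marrow and leukemic spleen, where it was low in both fusions (means 3.94 to 4.38). Emx2 had 0.97 against 0.06 to 0.58. The very small p-values of these genes thus do not measure the spread of the NHD13 thymus arrays that carry the difference.

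Against lineage-negative marrow alone, the thymus difference stood apart for Angpt1 (-3.17, adjusted p = 0.0214), Klhl4 (-3.14, adjusted p = 0.0491), Reep1 (-2.99, adjusted p = 0.0214), Tnfrsf4 (1.83, adjusted p = 0.0145) and Ccl22 (2.04, adjusted p = 0.0491). Against leukemic spleen alone it stood apart for Hoxc6 (-1.89, adjusted p = 0.00281), Lhx2 (-2.28, adjusted p = 0.00141) and Tesc (2.17, adjusted p = 0.0266). Most of these genes were chosen by their thymus difference, so the number that stood apart is a description.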

How the results depend on the processing

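The count between the fusions, 33, stayed within 1.5 times under other filters, mean probe sets, quantile normalization, trend and robust eBayes, sex as covariate and without CA10 3. It was 217 with all 57 arrays in the model, 18 with the Gapdh 3 prime minus 5 prime signal as covariate, 2 (Klhl4 and Pbx3) with only the CA10 and NHD13 arrays, 744 for the difference minus that of other wild-type and C57B6 marrow, and 526 without the 3 arrays. Leaving out each array gave 11 (without CA10 2) to 86 (without WT 6), with 19 without CA10 1, 17 without NHD13 1, 17 without WT 1, 19 without WT 3 and 19 without WT 5. With the replicate block, although the numbers do not pair the arrays, 2 genes were called between the fusions, 1 in NHD13 against WT and 1 as NHD13-only.

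CA10 against WT gave 1 gene (Hoxa9) with all 57 arrays, 6 without the 3 arrays and 0 to 1 with an array left out. CA10-only genes were 3 without the 3 arrays and 0 with any array left out. NHD13 against WT gave 222 after quantile normalization, 543 with all 57 arrays, 46 with the Gapdh covariate, 1637 without the 3 arrays, and 42 (without NHD13 1) to 317 (without WT 2) with an array left out. NHD13-only genes were 174 with all 57 arrays, 17 with the Gapdh covariate, 451 without the 3 arrays, and 11 (without CA10 2) to 68 (without WT 6) with an array left out.

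Other named genes near the threshold lost the call as follows: Tnfrsf4 with the 60th percentile filter, trend and robust eBayes, sex and the Gapdh covariate, Reep1 with mean probe sets (-1.39), quantile normalization and the Gapdh covariate, Bcl6 with all 57 arrays and the Gapdh covariate, and Aldh1b1 with the Gapdh covariate.

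Directions between the fusions turned only for genes that were not called. Hoxa10 was 0.11 with mean probe sets, 0.55 without the 3 arrays and -0.938 (without NHD13 1) to 1.37 (without NHD13 3) with an array left out. Mllt10 was 0.16 with mean probe sets, 0.085 after quantile normalization, 0.24 without the 3 arrays and -0.22 (without CA10 2) to 0.24 (without CA10 3) with an array left out. Nup98 was -0.30 with mean probe sets, -0.004 with the replicate block, -0.058 with the Gapdh covariate, and -0.065 (without CA10 2) to 0.134 (without CA10 3) with an array left out. Hoxa9 was -0.066 with the Gapdh covariate and -0.68 (without NHD13 1) to 1.758 (without NHD13 3) with an array left out. Bmi1 was -0.401 (without NHD13 2) to 0.062 (without NHD13 3), and Hoxa5 was -0.13 after subtracting the C57B6 difference. The causes were not tested.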

Other observations

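The neutrophil and granule genes, 14 tested, had 0 called members between the fusions with all arrays, and every difference was positive, with a median of 0.99 against 0.01 over all genes. S100a8, an alarm protein of neutrophils, had 11.63, 10.43, 7.78 and 11.21 in CA10 thymus and 10.02, 8.62 and 8.99 in NHD13 thymus, against 7.54 to 9.73 in WT thymus. CA10 thymus 3 was the lowest CA10 array and overlapped both other groups. The 12 cortical thymic epithelium genes had 0 called members between the fusions and a median difference of -0.75, which was -0.33 without CA10 thymus 3, WT thymus 2 and WT thymus 6. CA10 thymus 3 had the lowest CA10 mean of this list, 8.06 against 9.05 to 9.94 in the other CA10 arrays.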
